A study of Homo sapiens with 6 samples.

Results

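The 10 genes described here are ATF3, ATF4, ATF5, DDIT3, CEBPA, CEBPB, CEBPD, CEBPG, JDP2 and TRIB3. All but TRIB3 encode transcription factors, most of them of the ATF and C/EBP families. TRIB3 is a feedback inhibitor of the integrated stress response, in which several of the others act. The genes were matched by symbol, 10 of 26255 gene symbols listed. All 10 were among the 12203 genes that reached an average FPKM of 1 across the 6 libraries. FPKM is the number of fragments scaled to transcript length and library depth, so it is a level per length. The measure is RNA-seq of HCT116, a human colorectal cancer cell line, in 3 groups of 2 libraries. The groups were parent HCT116 cells, HCT116 cells given the small interfering RNA (siRNA) siLINC01534-1, and HCT116 cells given a second siRNA, siLINC01534-2. Both siRNAs were designed against LINC01534, a long non-coding RNA, and the study asked how silencing it changed gene expression. siRNAs were delivered with a lipid transfection reagent. No source used here describes a transfection of the parent cells, so a difference from parent can carry the transfection as well as the siRNA, and these cannot be told apart here. None of the 6 libraries was labelled as cells given a negative control siRNA.

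LINC01534 itself read 0.285 and 0.571 FPKM in parent. The siLINC01534-1 libraries listed it at 0 and 0.283, and the siLINC01534-2 libraries at 0.660 and 0.551. All of these levels were under the filter. The mean of the siLINC01534-2 libraries (0.606) was thus not below that of parent (0.428), but levels this low cannot check the labels. The study measured the silencing by quantitative PCR, which was not analysed here, and the groups are called by their labels. The depth was estimated at 8685207 to 10410836 reads a library. The methods of the study mention triplicate cultures, while 2 libraries a group are labelled and no label ties them to those cultures. The p-values thus measure the spread between these libraries, which may be technical. The tests were limma fits of log2(FPKM + 1) across the 12203 genes with Benjamini-Hochberg adjustment, and "passed" means an adjusted p under 0.05. The added 1 understates the change of genes with a low FPKM. A bulk library gives the average over all its cells, so a level shared by every cell and a higher level in fewer cells cannot be told apart.

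The integrated stress response starts when kinases such as PERK, GCN2, PKR and HRI phosphorylate the translation factor eIF2alpha. Most translation then falls, while the mRNA of ATF4 is translated more. ATF4 is a basic leucine zipper (bZIP) protein that binds DNA as a dimer, often with a C/EBP protein such as C/EBPβ or C/EBPγ, and switches on amino acid and redox genes as well as ATF3, TRIB3 and DDIT3. DDIT3 encodes CHOP, a C/EBP family protein linked to cell death under prolonged stress. ATF4 is controlled mainly in translation, so the level of its mRNA is not a measure of its protein.

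A composite element, an ATF site joined to a C/EBP site, is the sequence that ATF4 dimers are known to bind. Its letters TGATGCAA, or TTGCATCA on the other strand, were searched on both strands from 1000 bases before to 500 bases after the start of the canonical transcript in GRCh37. Among 11016 tested genes with such a window, 226 held it, or 2.05%. Among the 10 genes 5 held it, with 8 matches in all. These were ATF3, DDIT3, CEBPG, JDP2 and TRIB3. The sequences below show these matches on the strand of each gene, with the element in capitals. Positions count from 0 at the transcript start. A match is a description of the letters and not of a bound site. The genes and the motif were chosen with earlier results of these data known, so the shares are a description as well. Only these exact letters were searched, so a window without a match may hold another spelling of the element.

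ATF3, upstream, position -203, chr1:212781900-212781907: cctccccgaacTTGCATCAccagtgccccc
ATF3, upstream, position -21, chr1:212782082-212782089: tataaaaggggTGATGCAAcgctctccaag
JDP2, upstream, position -16, chr14:75894709-75894716: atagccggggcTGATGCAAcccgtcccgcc
CEBPG, intron, position 362, chr19:33864977-33864984: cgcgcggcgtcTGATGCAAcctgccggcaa
TRIB3, exon 1, position 132, chr20:361536-361543: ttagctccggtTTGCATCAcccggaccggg

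The coordinates are those of the 8 bases of the element. The ATF3 match at -21 lies in an exon of 1 other ATF3 transcript. TRIB3 held the element 3 times in the non-coding part of exon 1. The 30 bases around each TRIB3 match were the same, and the matches were 33 bases apart. The other TRIB3 matches were at chr20:361569-361576 and chr20:361602-361609. The match of DDIT3 was at chr12:57914596-57914603, at position -306. It stood near a match of the AP-1 pattern TGANTCA, which FOS and JUN dimers bind. The stretch that holds both, chr12:57914518-57914617 on the minus strand, is shown because DDIT3 was the only one of the 10 genes with both patterns.

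DDIT3, positions -320 to -221: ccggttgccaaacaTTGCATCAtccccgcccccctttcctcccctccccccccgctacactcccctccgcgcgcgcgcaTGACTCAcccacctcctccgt

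The AP-1 pattern reads the same on both strands, and 22.0% of the 11016 windows held it. In the set it was in 4 of 10 windows, those of ATF4, ATF5, CEBPB and DDIT3. The cyclic AMP response element TGACGTCA was in 5.15% of all windows and in 0 of the 10. None of the 3 patterns was in the windows of CEBPA and CEBPD.

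**Figure D1:**
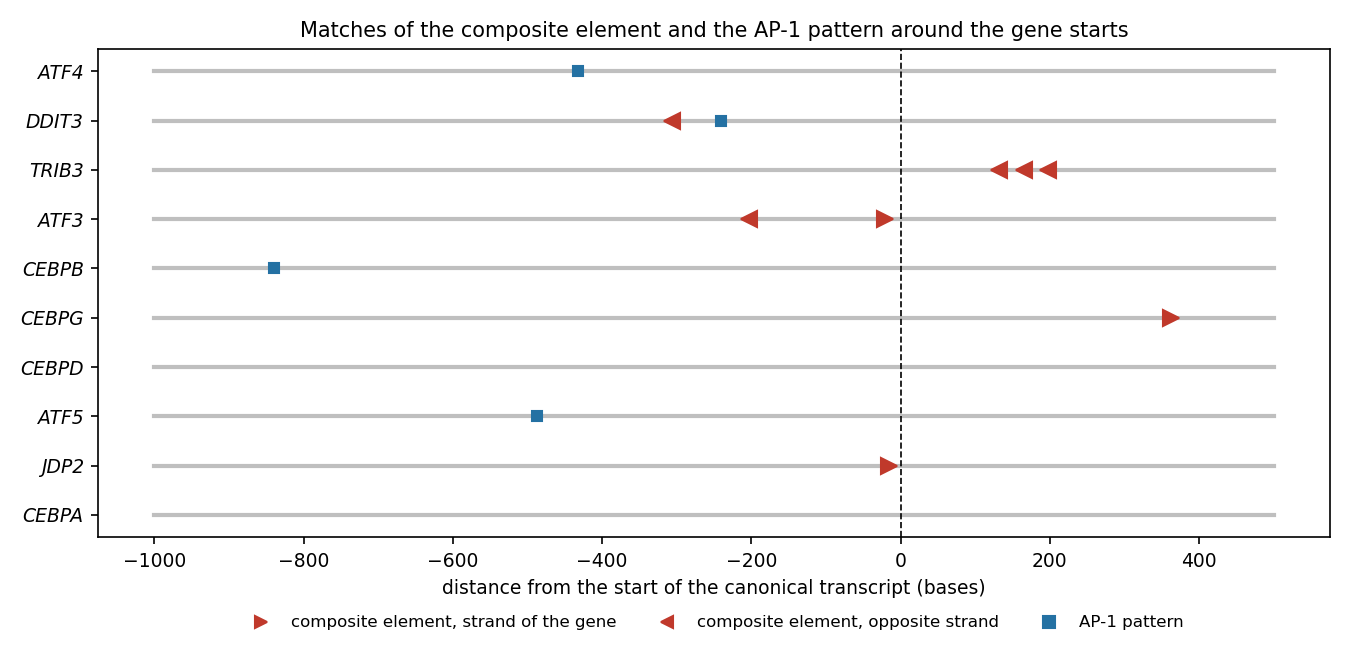
Positions of the composite element (triangles, pointing along the strand that reads TGATGCAA) and of the AP-1 pattern (squares) in the windows of the 10 genes, with the distance from the transcript start in bases on the horizontal axis. TRIB3 holds 3 elements after its start, ATF3 holds 2 before it, and DDIT3 holds 1 element and 1 AP-1 pattern.

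ATF4 (GRCh37, chr22:39915700-39918688, plus strand) was by far the most abundant of the 10 mRNAs. The FPKM values were 349.7 and 350.0 for parent, 567 and 574 for siLINC01534-1, and 386 and 378 for siLINC01534-2. The groups did not overlap, and siLINC01534-1 stood well above the others. ATF4 made up 73.5% of the summed FPKM of the 10 genes in parent. The log2 difference from parent was 0.70 with siLINC01534-1 (SE 0.0294, limma adjusted p = 8.52e-05) and 0.13 with siLINC01534-2 (SE 0.0294, adjusted p = 0.0341). The difference with siLINC01534-2 did not pass when any 1 of the 6 libraries was left out, with an adjusted p of 0.0658 to 0.127, and its adjusted p was 0.0969 without a trend of the spread on the level. The 4 annotated pseudogenes of ATF4, ATF4P1, ATF4P2, ATF4P3 and ATF4P4, share sequence with it, so reads could be divided among them.

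DDIT3, the gene of CHOP (chr12:57910371-57915520, minus strand), read 17.5 and 19.5 FPKM in parent. The siLINC01534-1 libraries read 76.7 and 73.5, and the siLINC01534-2 libraries 78.5 and 90.2. The lowest siRNA library was thus far above the highest parent library. The mean was 4.06 times that of parent with siLINC01534-1 and 4.56 times with siLINC01534-2. The log2 differences were 1.97 (SE 0.0826, limma adjusted p = 8.52e-05) and 2.13 (SE 0.0826, adjusted p = 0.000258). The siRNAs did not differ past the threshold, with a difference of -0.16 and a 95% interval from -0.37 to 0.04 (limma adjusted p = 0.171). DDIT3 overlaps MARS1 and MBD6 on the other strand. The library kit keeps the strand, but whether the counting used it is not given in the sources used here. DDIT3 also overlaps the microRNA gene MIR616 and the protein-coding record ENSG00000285133 on its own strand, whose reads strand would not separate.

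ATF3, a bZIP factor that ATF4 and CHOP are known to induce and that can repress stress genes, also rose (chr1:212738676-212794119, plus strand). In FPKM, parent held 11.9 and 13.0, siLINC01534-1 held 62.2 and 60.6, and siLINC01534-2 held 45.2 and 51.2. The 3 groups were separate. The mean ratio to parent was 4.93 with siLINC01534-1 (log2 difference 2.22, SE 0.0741, limma adjusted p = 5.4e-05). With siLINC01534-2 it was 3.87 (1.87, SE 0.0741, adjusted p = 0.000261). In parent the level of ATF3 was above that of 51.0% of the tested genes, against 87.9% with siLINC01534-1 and 83.6% with siLINC01534-2. The level with siLINC01534-1 was 1.28 times that with siLINC01534-2 (log2 0.35, limma adjusted p = 0.0154). This difference between the siRNAs no longer passed without siLINC01534-1 replicate 1 (adjusted p = 0.0812), siLINC01534-1 replicate 2 (0.0626) or siLINC01534-2 replicate 1 (0.0578).

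TRIB3 (chr20:343479-378203, plus strand) encodes a pseudokinase that binds ATF4 and CHOP and holds back their activity. Parent libraries read 31.6 and 30.0 FPKM, siLINC01534-1 libraries 84.4 and 79.0, and siLINC01534-2 libraries 75.1 and 78.8. All 4 siRNA libraries lay above both parent libraries, and the siRNA groups lay next to each other without overlap. The mean ratio to parent was 2.65 and 2.50 for siLINC01534-1 and siLINC01534-2. The log2 differences were 1.38 (SE 0.0517, limma adjusted p = 6.94e-05) and 1.29 (SE 0.0517, adjusted p = 0.000261). The difference between the siRNAs was 0.09, with a 95% interval from -0.04 to 0.21 (adjusted p = 0.237).

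**Figure D2:**
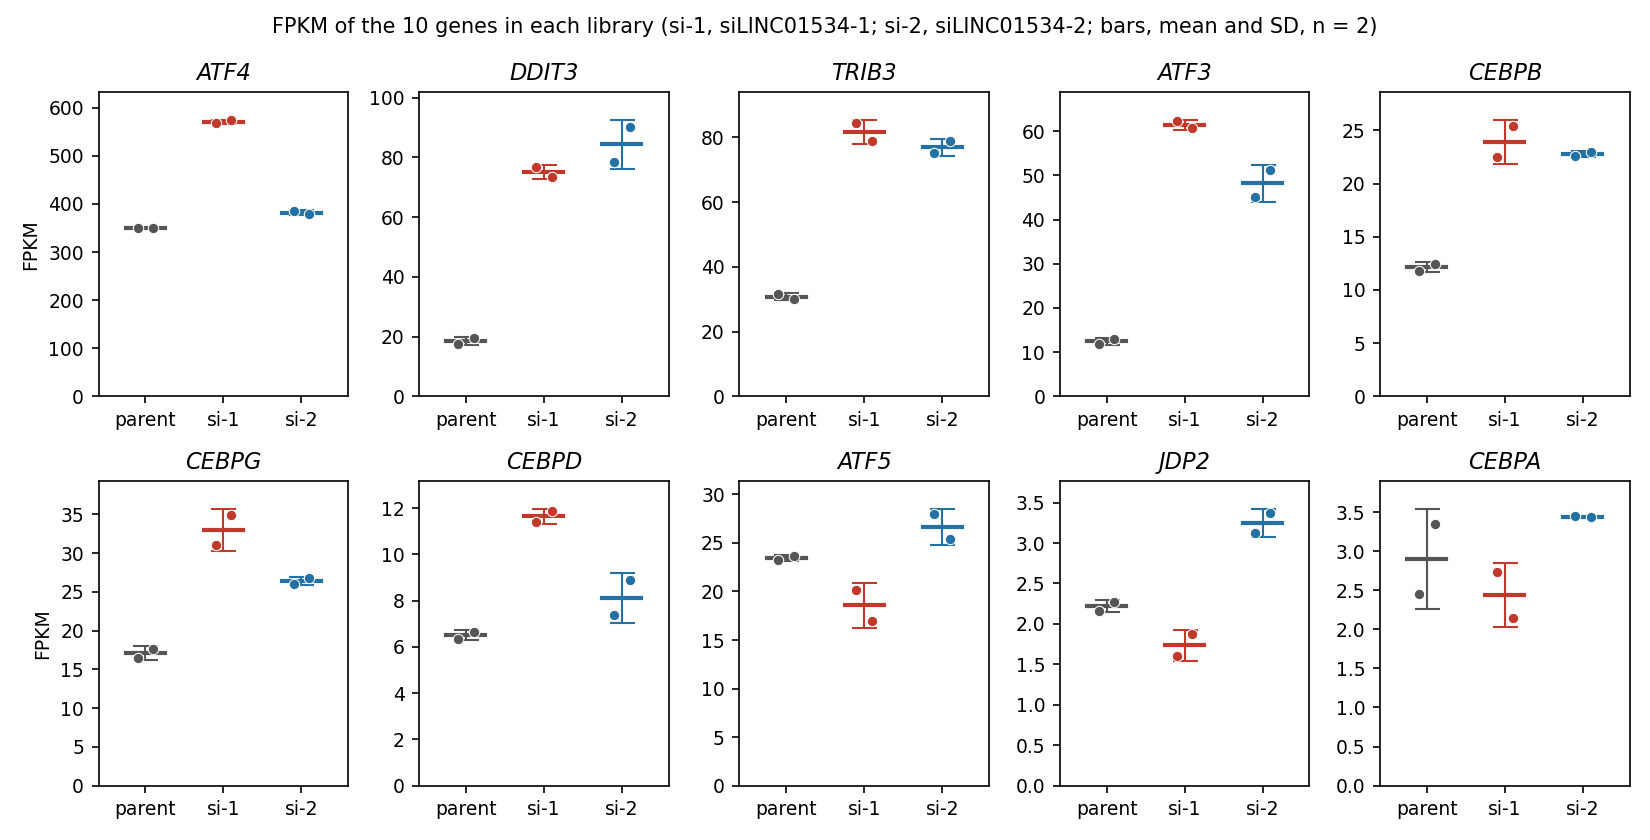
FPKM (vertical axis, from 0, a scale for each gene) of the 10 genes in each library (points) of parent, siLINC01534-1 (si-1) and siLINC01534-2 (si-2), with the mean and SD of the 2 libraries as bars. DDIT3 and ATF3 rise from means of 18.5 and 12.5 in parent to 48.2 or more with either siRNA, while ATF5 and JDP2 lie below parent with siLINC01534-1 and above it with siLINC01534-2.

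CEBPB, a partner of ATF4 and CHOP (chr20:48807367-48809205, plus strand), rose with both siRNAs. The FPKM values were 11.8 and 12.5 for parent, 22.4 and 25.4 for siLINC01534-1, and 22.5 and 22.9 for siLINC01534-2. The siRNA groups overlapped each other and lay clear of parent. The mean ratio was 1.97 with siLINC01534-1 (log2 0.92, SE 0.0682, limma adjusted p = 0.000384). It was 1.87 with siLINC01534-2 (log2 0.85, adjusted p = 0.00192). The antisense RNA CEBPB-AS1 overlaps the gene.

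CEBPG (chr19:33864591-33873592, plus strand) encodes a short C/EBP protein that lacks an activation domain and pairs with ATF4. In FPKM, parent held 16.4 and 17.7, siLINC01534-1 held 31.1 and 34.9, and siLINC01534-2 held 26.1 and 26.8. The 3 groups were separate, with siLINC01534-2 between parent and siLINC01534-1. The log2 difference from parent was 0.91 (SE 0.0688, limma adjusted p = 0.000405) with siLINC01534-1 and 0.60 (adjusted p = 0.00492) with siLINC01534-2. The difference between the siRNAs was 0.31 (adjusted p = 0.0178). It did not pass without siLINC01534-1 replicate 2 (adjusted p = 0.0705), siLINC01534-2 replicate 1 (0.0852) or siLINC01534-2 replicate 2 (0.0619).

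CEBPD, an early response member of the family (chr8:48649475-48650726, minus strand), was lower in level. Parent libraries read 6.34 and 6.65 FPKM, siLINC01534-1 libraries 11.4 and 11.9, and siLINC01534-2 libraries 7.36 and 8.89. No library of either siRNA reached down to parent. The difference from parent passed with siLINC01534-1 (log2 0.75, SE 0.0907, limma adjusted p = 0.00187). It did not pass with siLINC01534-2 (log2 0.28, 95% interval 0.05 to 0.50, adjusted p = 0.0814), but did without siLINC01534-2 replicate 1 (0.0424). The difference between the siRNAs was 0.48 (adjusted p = 0.0105) and did not pass without siLINC01534-1 replicate 1 (0.0501) or siLINC01534-1 replicate 2 (0.0615). For the difference of both siRNAs from parent, 0.52 (adjusted p = 0.00592), leaving out parent replicate 1 gave 0.49, which did not pass by a small margin.

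CEBPA, best known for driving differentiation (chr19:33790840-33793440, minus strand), did not pass in any comparison. The FPKM values were 2.45 and 3.35 for parent, 2.73 and 2.15 for siLINC01534-1, and 3.45 and 3.43 for siLINC01534-2. The parent libraries overlapped those of siLINC01534-1. The log2 difference from parent was -0.18 with siLINC01534-1, with a 95% interval from -0.54 to 0.19 (limma adjusted p = 0.366). It was 0.20 with siLINC01534-2, with an interval from -0.17 to 0.56 (adjusted p = 0.375). CEBPA was also thinly read, at an estimated 52 to 86 reads a library.

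ATF5 and JDP2 lay on opposite sides of parent with the 2 siRNAs. ATF5, whose mRNA is also translated more when eIF2alpha is phosphorylated (chr19:50431959-50437192, plus strand), read 23.2 and 23.7 FPKM in parent. The values were 20.2 and 16.9 for siLINC01534-1, and 28.0 and 25.4 for siLINC01534-2. The groups did not overlap. The log2 difference from parent was -0.33 with siLINC01534-1 (SE 0.0911, limma adjusted p = 0.0322). This did not pass without parent replicate 1 (adjusted p = 0.107), parent replicate 2 (0.124) or siLINC01534-1 replicate 2 (0.102), and with no filter on low values its adjusted p was 0.0595. With siLINC01534-2 the difference was 0.18 (95% interval -0.05 to 0.40, adjusted p = 0.222). The difference between the siRNAs was -0.50 (adjusted p = 0.00885), and it did not pass without siLINC01534-2 replicate 1 (-0.44, adjusted p = 0.0516). IL4I1 and NUP62 overlap ATF5 on the other strand.

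JDP2 (chr14:75894419-75940814, plus strand) encodes a bZIP repressor that pairs with JUN and ATF2. In FPKM, parent held 2.16 and 2.27, siLINC01534-1 held 1.60 and 1.87, and siLINC01534-2 held 3.12 and 3.37. The 3 groups were separate. The difference from parent was 0.40 with siLINC01534-2 (SE 0.0977, limma adjusted p = 0.0387) and -0.24 with siLINC01534-1 (95% interval -0.48 to 0.01, adjusted p = 0.101). The first of these did not pass without parent replicate 1 (adjusted p = 0.131), parent replicate 2 (0.111), siLINC01534-2 replicate 1 (0.0935) or siLINC01534-2 replicate 2 (0.145). Its adjusted p was 0.0637 with no filter. The difference between the siRNAs was -0.64 (SE 0.0977, adjusted p = 0.00517), so JDP2 had 0.535 times the level with siLINC01534-1 that it had with siLINC01534-2. JDP2 has 8 annotated transcripts and an estimated 74 to 182 reads a library.

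**Figure D3:**
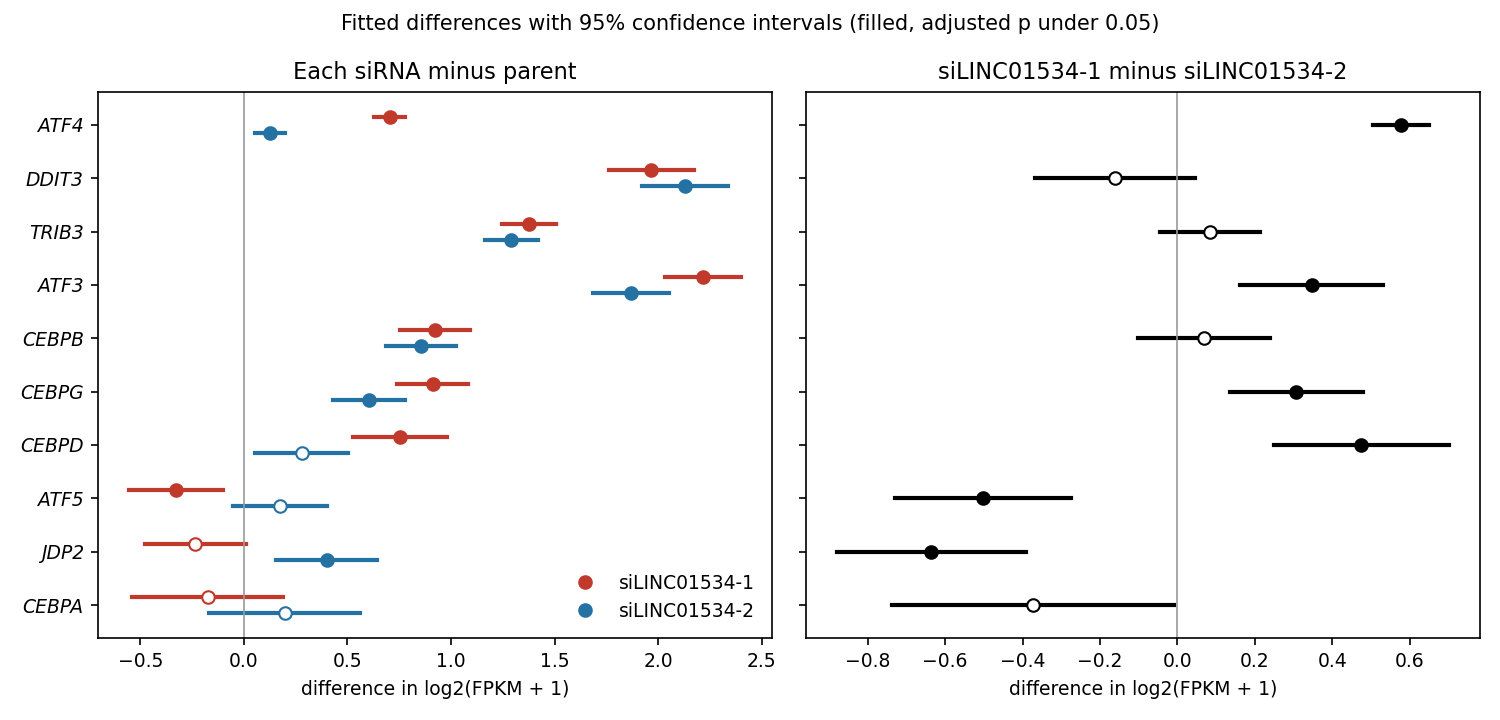
Fitted differences in log2(FPKM + 1) with 95% confidence intervals, each siRNA minus parent on the left and siLINC01534-1 minus siLINC01534-2 on the right, filled where the adjusted p is under 0.05. ATF3 (2.22 and 1.87) and DDIT3 (1.97 and 2.13) lie farthest to the right, and on the right panel ATF4 (0.58) and JDP2 (-0.64) lie farthest apart.

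Over both siRNAs, 7 of the 10 genes passed as higher than parent: ATF3, ATF4, DDIT3, TRIB3, CEBPB, CEBPD and CEBPG. Of all tested genes 17.1% passed as higher, 20.1% as lower and 37.2% in either direction. By limma 0 of the 10 passed as lower, and 0 were lower at an unadjusted p under 0.05. The same 7 genes had all 4 siRNA libraries above both parent libraries, against 19.0% of all tested genes. 0 of the 10 had all 4 below, against 19.3%. The median log2 difference of the 10 genes was 0.64, and that of all tested genes was -0.0068. The 10 genes and the lists below were chosen with earlier results of these data known. Their counts beside the shares of all tested genes are thus a description and not a test of the set.

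With siLINC01534-1, 7 of the 10 genes passed as higher and 1, ATF5, as lower. Of all tested genes 21.8% passed as higher and 24.5% as lower, or 46.3% in all. With siLINC01534-2, 7 passed as higher and 0 as lower, against 11.1% and 11.8% of all tested genes, or 22.8% in all. CEBPD was among the genes higher with siLINC01534-1 and JDP2 among those higher with siLINC01534-2. Between the siRNAs, 4 genes were higher with siLINC01534-1 (ATF3, ATF4, CEBPD and CEBPG) and 2 were lower (ATF5 and JDP2). Of all tested genes 19.5% were higher and 22.3% lower, or 41.8% in all. The 6 called of 10 thus stand beside a background in which a large part of all genes differed between the siRNAs. That count fell to 3 without siLINC01534-1 replicate 2 and without siLINC01534-2 replicate 1. The 2 siRNA comparisons share the parent libraries.

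The order of the mRNA levels changed along with the levels. In parent it ran from ATF4 at 349.9 FPKM through TRIB3 (30.8), ATF5 (23.5), DDIT3 (18.5), CEBPG (17.1), ATF3 (12.5), CEBPB (12.1), CEBPD (6.50) and CEBPA (2.90) to JDP2 (2.22). The libraries of DDIT3 and CEBPG overlapped, as did those of ATF3 and CEBPB, so the order within these pairs is within the spread. With siLINC01534-1, ATF4 (571) was followed by TRIB3 (81.7), DDIT3 (75.1) and ATF3 (61.4). Here ATF5 (18.6) stood below CEBPG (33.0) and CEBPB (23.9). With siLINC01534-2, the levels after ATF4 (382) were DDIT3 (84.3), TRIB3 (77.0) and ATF3 (48.2). The libraries of DDIT3 and TRIB3 overlapped there, as did those of ATF5 (26.7) and CEBPG (26.5). CEBPD, CEBPA and JDP2 were the lowest in every group.

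The kinases and phosphatases that act on eIF2alpha, upstream of ATF4, changed in both directions. The list of 7 genes held these and EIF2S1, the gene of eIF2alpha itself. With both siRNAs together 3 of the 7 passed as higher, against 17.1% of all tested genes, and 3 as lower, against 20.1%. EIF2S1 was among the 3 lower, and the list median was -0.08. PPP1R15A, the stress-induced phosphatase subunit that reverses the phosphorylation of eIF2alpha, read 19.5 and 18.7 FPKM in parent. The values were 60.0 and 55.5 for siLINC01534-1, and 59.1 and 59.7 for siLINC01534-2, and the siRNA libraries were all far above parent (log2 1.57, limma adjusted p = 5.35e-05). EIF2AK3, which encodes PERK, the kinase that answers to endoplasmic reticulum stress, was higher by 0.83 (adjusted p = 0.00161). PPP1R15B, the constitutive subunit, was higher by 0.27 (adjusted p = 0.00415).

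None of the other kinase genes passed as higher. EIF2AK1, the gene of the heme-regulated kinase HRI, differed from parent by -0.28 (limma adjusted p = 0.00194). EIF2AK4, the gene of the amino acid sensor GCN2, differed by -0.21 (adjusted p = 0.00767). Its difference from parent was -0.03 with siLINC01534-1 (adjusted p = 0.562) and -0.38 with siLINC01534-2 (adjusted p = 0.00383), and the siRNAs differed by 0.35 (adjusted p = 0.00185). EIF2AK2, the gene of the double-stranded RNA sensor PKR, had a difference of -0.08 (adjusted p = 0.177). It passed as lower with siLINC01534-1 (-0.18, adjusted p = 0.0257) but not with siLINC01534-2 (0.02, adjusted p = 0.785). The siRNAs differed by -0.20 in EIF2AK2 (adjusted p = 0.0202). Parent libraries read 18.7 and 18.6 FPKM, siLINC01534-1 libraries 16.5 and 16.3, and siLINC01534-2 libraries 18.4 and 19.5. EIF2S1, which encodes eIF2alpha itself, was lower by a difference of -0.15 (adjusted p = 0.0424). It passed with siLINC01534-1 (-0.21, adjusted p = 0.0204) but not with siLINC01534-2 (-0.09, adjusted p = 0.228).

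Known ATF4 target genes were taken from a list of 21, of which 17 passed the filter on low values. With both siRNAs together 14 passed as higher, against 17.1% of all tested genes, and 1 as lower, against 20.1%. The median log2 difference was 0.60. CHAC1, a glutathione-degrading enzyme, differed by 1.41 (limma adjusted p = 9.88e-05) and DDIT4, an inhibitor of mTORC1, by 1.40 (adjusted p = 0.000127). The 1 lower gene was AARS, alanyl-tRNA synthetase. Its values in FPKM were 77.9 and 80.3 for parent, 39.6 and 41.8 for siLINC01534-1, and 100.1 and 99.9 for siLINC01534-2. It was thus below parent with siLINC01534-1 and above it with siLINC01534-2, and the siRNAs differed by -1.28 (adjusted p = 6.6e-05).

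With siLINC01534-1, 14 of the 17 passed as higher, against 21.8% of all tested genes, and 1 as lower, against 24.5%. The median was 0.75. SESN2, a stress-induced inhibitor of mTORC1 signalling (1.47), and SLC7A11, the cystine transporter (1.39), had the largest increases. With siLINC01534-2, 12 passed as higher, against 11.1% of all tested genes, and 1 as lower, against 11.8%. The median was 0.42. The lower gene was MTHFD2, a mitochondrial folate enzyme, at -0.25 (limma adjusted p = 0.012). It was higher than parent with siLINC01534-1 (0.32, adjusted p = 0.00207), and the siRNAs differed by 0.58 (adjusted p = 0.000426). Between the siRNAs 7 genes were higher with siLINC01534-1 and 2 lower, against 19.5% and 22.3% of all tested genes. The largest of the 7 were CTH, which makes cysteine (0.82), and PSAT1 of serine synthesis (0.60). EIF4EBP1, a repressor of cap-dependent translation, was lower (-0.28), as was AARS. The exact letters of the composite element were in the windows of 6 of the 14 genes of the list that had a window, against 2.05% of all windows. The 6 were ADM2, CHAC1, PHGDH, PSAT1, SLC7A11 and STC2, and other spellings were not searched. The list holds known ATF4 targets and the element is one that ATF4 dimers are known to bind. The share is thus a description and not a test.

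CHOP target genes numbered 7 and all passed the filter. With both siRNAs together 6 passed as higher, against 17.1% of all tested genes, and 1 as lower, against 20.1%. The median was 1.07. PPP1R15A and CHAC1 led, and both also stand in another list above, as does DDIT4. The lower gene was ERO1A, an oxidase of disulfide formation, which read 23.1 and 20.8 FPKM in parent. The siLINC01534-1 libraries read 8.55 and 9.72, and the siLINC01534-2 libraries 23.7 and 23.5. Only the siLINC01534-1 libraries were low, and the siRNAs differed by -1.28 (limma adjusted p = 0.000311). TNFRSF10B, the death receptor DR5, was higher with siLINC01534-1 than with siLINC01534-2 by 0.40 (adjusted p = 0.00642). With siLINC01534-1 alone 5 genes passed as higher and 1 as lower, against 21.8% and 24.5% of all tested genes. With siLINC01534-2 alone 6 passed as higher and 0 as lower, against 11.1% and 11.8%.

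**Figure D4:**
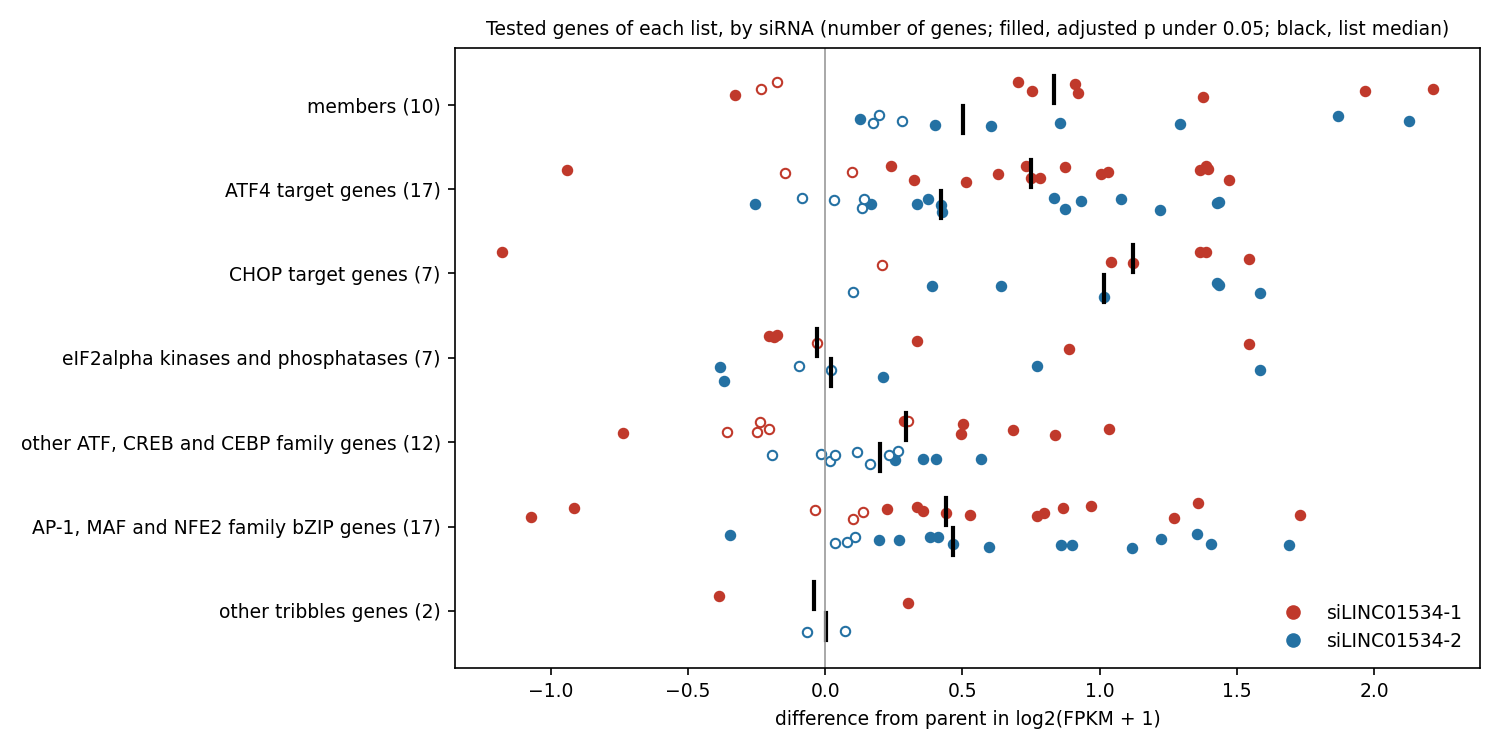
Difference from parent in log2(FPKM + 1) for each tested gene of the 10-gene set and of 6 lists, with siLINC01534-1 and siLINC01534-2 in separate rows of points, filled where the adjusted p is under 0.05 and with the list median as a black bar. The medians of the ATF4 target list are 0.75 and 0.42, while those of the eIF2alpha list are near 0.

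Among other ATF, CREB and C/EBP family genes, 12 of 18 passed the filter. Of these 7 passed as higher and 1 as lower with both siRNAs together, against 17.1% and 20.1% of all tested genes. The median was 0.29. CREB3, a Golgi-processed membrane bZIP factor, was higher by 0.63 (limma adjusted p = 0.000419) and CREM, a cyclic AMP responsive factor, by 0.57 (adjusted p = 0.0112). BATF3 was the lower one, at -0.38 (adjusted p = 0.0467). Its difference from parent was -0.74 with siLINC01534-1 (adjusted p = 0.00678) and -0.01 with siLINC01534-2 (adjusted p = 0.951), and the siRNAs differed by -0.72 (adjusted p = 0.00833). The parent libraries of CREM read 8.78 and 7.10 FPKM, those of siLINC01534-1 15.6 and 18.9, and those of siLINC01534-2 8.45 and 8.85. It was thus high in the siLINC01534-1 libraries, and the siRNAs differed by 0.92 (adjusted p = 0.0034). XBP1, the factor spliced by IRE1, also differed between the siRNAs, by 0.58, as did ATF2, by -0.61.

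A list of bZIP genes, mainly of the AP-1, MAF and NFE2 families, gave 17 tested genes of 21. It also held bZIP genes of other families, such as TEF and DBP. With both siRNAs together 14 passed as higher, against 17.1% of all tested genes, and 1 as lower, against 20.1%. The median was 0.53. The parent libraries of JUN read 8.18 and 7.92 FPKM, those of siLINC01534-1 28.5 and 29.5, and those of siLINC01534-2 27.2 and 29.3. The siRNA groups overlapped each other far above parent (log2 1.71, limma adjusted p = 5.35e-05). FOS was higher by 1.38 (adjusted p = 0.000205). TEF was the lower one, at -0.42 (adjusted p = 0.02). Its difference from parent was -0.92 with siLINC01534-1 (adjusted p = 0.00176) and 0.08 with siLINC01534-2 (adjusted p = 0.641), and the siRNAs differed by -0.99 (adjusted p = 0.00168). Between the siRNAs 3 of the 17 genes were higher with siLINC01534-1 and 4 lower, against 41.8% of all tested genes in either direction. Among them were JUND (0.67) and DBP (-1.11).

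Of the other tribbles genes, TRIB1 was higher than parent by 0.19 (limma adjusted p = 0.0114) and TRIB2 was lower (-0.23, adjusted p = 0.0445). TRIB1 was the most abundant of the family in parent at 130.3 FPKM, against 30.8 for TRIB3 and 5.77 for TRIB2. With siLINC01534-1 it was 161.0 and TRIB3 81.7. Neither TRIB1 (0.07) nor TRIB2 (-0.07) passed with siLINC01534-2 (adjusted p = 0.26 and 0.563).

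The genes whose levels ran most like those of DDIT3, ATF4 and TRIB3 were ranked by Pearson's r of log2(FPKM + 1) over the 6 libraries, among 8891 genes whose average FPKM reached 5. These values are a description, since the 6 points fall into 3 groups and many genes share such a pattern. For DDIT3 the closest were CXCL8 (0.9996), SLC3A2 (0.9995) and SAT1 (0.9992), and 275 genes had an r over 0.95. CXCL8, the gene of interleukin 8, read 1.12 and 1.39 FPKM in parent, against 17.2 and 17.1 in the siLINC01534-1 libraries and 18.9 and 21.9 in those of siLINC01534-2. Like DDIT3, it was lower in parent than with the siRNAs and similar with both siRNAs, though the level of DDIT3 in parent was much higher. The parent libraries of CXCL8 were under 5, so it met the filter only through the siRNA libraries.

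For TRIB3 the closest were OSGIN1 (0.9999), TRIML2 (0.9998) and UPP1 (0.9991), among 310 over 0.95. UPP1, uridine phosphorylase, read 14.9 and 13.6 FPKM in parent, against 81.4 and 73.4 in the siLINC01534-1 libraries and 63.0 and 67.0 in those of siLINC01534-2. For ATF4 they were LRP8 (0.9988), B4GALNT1 (0.9980) and C9orf69 (0.9979), among 501 over 0.95. B4GALNT1, a ganglioside synthase, read 13.7 and 13.8 FPKM in parent, against 31.2 and 32.3 in the siLINC01534-1 libraries and 17.3 and 16.1 in those of siLINC01534-2. The shape is that of ATF4, with siLINC01534-1 high and siLINC01534-2 slightly above parent.

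The cells were checked against marker lists. Of 9 epithelial markers 8 reached an FPKM of 1, all but VIL1, and their summed FPKM was 3536 to 3601 in parent, 3044 to 3048 with siLINC01534-1 and 3445 to 3623 with siLINC01534-2. Of 6 fibroblast markers only COL1A1 reached 1, DCN and LUM were at 0 in every library, and the sum was at most 6.08. Of 4 leukocyte markers only LYZ reached 1, CD3E was at 0 in every library, and the sum was at most 1.95. None of 4 endothelial markers reached 1. The fibroblast sum was 3.11 to 3.14 in parent, 5.36 to 6.08 with siLINC01534-1 and 3.85 to 4.33 with siLINC01534-2. The leukocyte sum was 0.702 to 0.776, 1.20 to 1.50 and 1.29 to 1.95 in the same groups. Their part in the differences was not tested.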

How the data were processed

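RNA of 6 HCT116 libraries was measured by stranded mRNA-seq on 75-base single-end reads. Per the labels and methods, the authors aligned reads to hg19 with TopHat2 2.0.13, Bowtie2 2.2.3 and SAMtools 0.1.19 and deposited FPKM values per gene symbol from Cufflinks 2.2.1. The annotation and the strand setting are not given in the sources used here, and the labels and the methods name different RNA kits. No counts were used. Depth was estimated from the FPKM steps of genes with 1 transcript, with 200 bases taken off each transcript, and covers counting error only. The estimate was the most common value within a range set in advance and rested on 88 to 122 genes a library, so it is rough. The record MIR6723 took 47.1 to 54.7% of each library's summed FPKM.

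Genes whose average FPKM reached 1 were tested as log2(FPKM + 1) with limma 3.58.1 (R 4.3.3), with a trend and Benjamini-Hochberg adjustment. The fit held the 3 groups and gave 4 contrasts. The script was tested on simulated data. With 2 libraries against 2, a two-sided exact permutation test cannot go below 0.333, and with 4 against 2 below 0.0667. Alternatives were a pseudocount of 0.1, no filter, median-of-ratios scaling, no trend, the replicate number as a block, and each library left out. Windows and gene positions came from GRCh37 and its GENCODE annotation, and 90.3% of tested genes had a window. The lists gave at most 4 examples per contrast, the 2 largest increases and the 2 largest decreases that passed, besides the eIF2alpha kinase and phosphatase genes. EIF2S1, and the genes given only as holding the composite element, were named after their values were seen. For DDIT3, ATF4 and TRIB3, the 3 genes with the highest r were given, short RNA genes left out. The 10 genes, the lists, the motifs and the window were chosen with earlier results of these data known. Tables were handled with Python 3.11.15, pandas 2.3.3 and numpy 2.4.6, and plots with matplotlib 3.10.9. A leukocyte marker of the list first written is not reported here.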

Additional observations from a re-analysis of the deposited data

Results flagged for a closer look

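The difference between the siRNAs was itself tested with limma, and 6 of the 10 genes differed (siLINC01534-1 minus siLINC01534-2, log2, Benjamini-Hochberg adjusted p). Of all tested genes 41.8% passed in this comparison. ATF4 (0.58, adjusted p = 0.000211), CEBPD (0.48, 0.0105), ATF3 (0.35, 0.0154) and CEBPG (0.31, 0.0178) were higher with siLINC01534-1 in both of its libraries than in either siLINC01534-2 library. JDP2 (-0.64, 0.00517) and ATF5 (-0.50, 0.00885) were lower in both. The calls of ATF3, ATF5, CEBPD and CEBPG did not hold in every fit with 1 library left out, as given with each gene above. DDIT3, TRIB3 and CEBPB did not differ past the threshold, with 95% intervals of -0.37 to 0.04, -0.04 to 0.21 and -0.10 to 0.24. LINC01534 had an FPKM of 0 and 0.283 in the siLINC01534-1 libraries and of 0.660 and 0.551 in the siLINC01534-2 libraries, and its part in these differences was not tested. No group had enough libraries to look for 1 that stood apart.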

How the results depend on the processing

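Of 440 values computed under an alternative, 407 kept their direction and their side of the threshold, 28 no longer passed, 2 newly passed and 3 turned sign. Those that turned sign had not passed before. They were CEBPA with both siRNAs together (0.01), which ranged from -0.16 without parent replicate 1 to 0.18 without parent replicate 2 and was -0.05 without siLINC01534-1 replicate 1, and CEBPB between the siRNAs (0.07), which ranged from -0.0177 without siLINC01534-1 replicate 2 to 0.15 without siLINC01534-1 replicate 1. When 1 library at a time was left out, the number of the 10 genes that passed was 6 to 7 for both siRNAs, 7 to 8 for siLINC01534-1, 5 to 6 for siLINC01534-2 and 3 to 6 between the siRNAs. The last was 3 without siLINC01534-1 replicate 2 and without siLINC01534-2 replicate 1. The counts over all genes fell with fewer libraries, from 4541 to as few as 2360, from 5654 to 3987, from 2788 to 948 and from 5096 to 3290 in the same order. JDP2 newly passed with siLINC01534-1 without the trend (adjusted p = 0.0432), and CEBPD with siLINC01534-2 without siLINC01534-2 replicate 1 (0.0424). No value moved its call under a pseudocount of 0.1 or median-of-ratios scaling.

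The replicate numbers did not pair the libraries: the deviations of same-numbered libraries correlated at 0.11, 0.03 and -0.05. With the replicate number as a block, ATF4 and JDP2 with siLINC01534-2 did not pass (limma adjusted p = 0.0812 and 0.0594), the number of the 10 genes that passed there was 5, and no other call of the 10 changed. Depth limited CEBPA, CEBPD and JDP2 most, at an estimated 52, 67 and 74 reads in their lowest libraries, a counting error of 13.8%, 12.2% and 11.7%.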
